A study of Arabidopsis lyrata and Arabidopsis thaliana with 9 samples.

Results

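Inflorescences of Arabidopsis lyrata were compared with leaves of the same species across the whole range of transcript abundance. The comparison used 6 of the 9 libraries of the series, 3 of A. lyrata inflorescences and 3 of A. lyrata leaves. The other libraries came from A. thaliana inflorescences, share no gene identifier with these, and were left out. All 6 came from wild-type plants of the strain given as lyrata, sampled after bolting, when the flowering stem has grown out, and grown in long days at 18 °C. The libraries were directional, which means that the protocol keeps the strand of the RNA, and were made from total RNA. The labels call the 3 libraries of a tissue biological replicates and do not say whether each came from its own plant or from pooled plants.

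The files listed 32644 gene identifiers in every library, as numbers only. None was found among the 34365 genes of an A. lyrata RefSeq table, so genes are described by their level and by count, without names, and the tissue labels were not checked against marker genes. Each gene was placed in 1 of 5 bins by its mean CPM (counts scaled by the raw total of the library) over the 6 libraries. The bins held 13321 genes under 1 CPM, 6143 from 1 to 10, 11130 from 10 to 100, 1982 from 100 to 1000 and 68 over 1000. CPM takes no account of gene length, so the bins order genes by their share of reads and not by molecules per cell. The bins were set from the same counts that were then compared. The mean takes both tissues alike, but it follows the tissue in which a gene is higher. The split of directions and the number of large changes in a bin therefore depend on the bin rule. Over 1000 CPM, 29.2% of the called genes were higher in inflorescences under this rule, against 13.5% with bins by mean log2 CPM.

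As background, a leaf is a mature organ in which most RNA is made by green mesophyll cells, and messages for light harvesting and carbon fixation take a large part of it. An inflorescence joins meristems, buds of several stages and, within them, stamens with developing pollen, carpels and ovules. A bulk library averages over all those cells. A transcript made by few cells of an inflorescence can therefore read as a low level, and a message strongly made by a single abundant or very active cell type as a high level. In bulk tissue, fewer cells of a type and less RNA per cell cannot be told apart, and this holds for every difference given here.

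Inflorescence libraries held 7211749 to 12729487 counts and leaf libraries 11419322 to 13786151, so the depths overlapped and the shallowest library was from inflorescences. A single count was worth 0.0786 to 0.139 CPM in inflorescences and 0.0725 to 0.0876 CPM in leaves. Genes of 100 to 1000 CPM had a median of 1682 counts a library, and those of 1 to 10 CPM a median of 38, so precision differed widely between bins. Every pair of replicates differed by more than sampling noise, with 5.94 to 27.1 as the mean chi-square per gene, so no library repeated another.

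The most abundant genes held less of the inflorescence RNA than of the leaf RNA, and the middle of the range held more. The shares of a library add up to its whole, so a smaller share in a bin must be met by larger shares in others. The differences by bin are therefore not independent results. The 68 genes over 1000 CPM took 12.6%, 11.9% and 10.6% of the counts in inflorescence libraries 1, 2 and 3, against 17.8%, 17.8% and 17.4% in leaf libraries 1, 2 and 3. The means were 11.7% ± 1.02 in inflorescences and 17.7% ± 0.256 in leaves (SD, n = 3 each), a difference of -5.92 percentage points. No inflorescence library reached the lowest leaf library.

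Genes of 10 to 100 CPM made up 42.0%, 41.9% and 42.3% of inflorescence counts, against 37.6%, 38.2% and 38.9% of leaf counts. Their means were 42.1% ± 0.226 and 38.2% ± 0.63 (SD, n = 3 each), a difference of 3.83 points, and here every inflorescence library stood above every leaf library. Genes of 1 to 10 CPM made up 3.19% ± 0.0798 in inflorescences and 2.35% ± 0.144 in leaves, and genes under 1 CPM 0.209% ± 0.00718 and 0.11% ± 0.0174, again without overlap. Genes of 100 to 1000 CPM took 42.8% ± 0.79 in inflorescences and 41.7% ± 0.59 in leaves. In this bin the tissues overlapped, with 42.0% in the lowest inflorescence library and 42.3% in the highest leaf library.

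For the shares, a two-sided exact permutation test was run over libraries. In this exact test the 4 bins without overlap gave p = 0.1, which is as low as 3 libraries a tissue can go, and 0.125 after adjustment for the 5 bins. The exact test gave p = 0.2 for genes of 100 to 1000 CPM, and their small surplus changed sign, to -0.0219 points, when the 4 genes that held over 1% of any library were left out of the totals. Without those genes the bin over 1000 CPM still differed, by -3.65 points.

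**Figure D1:**
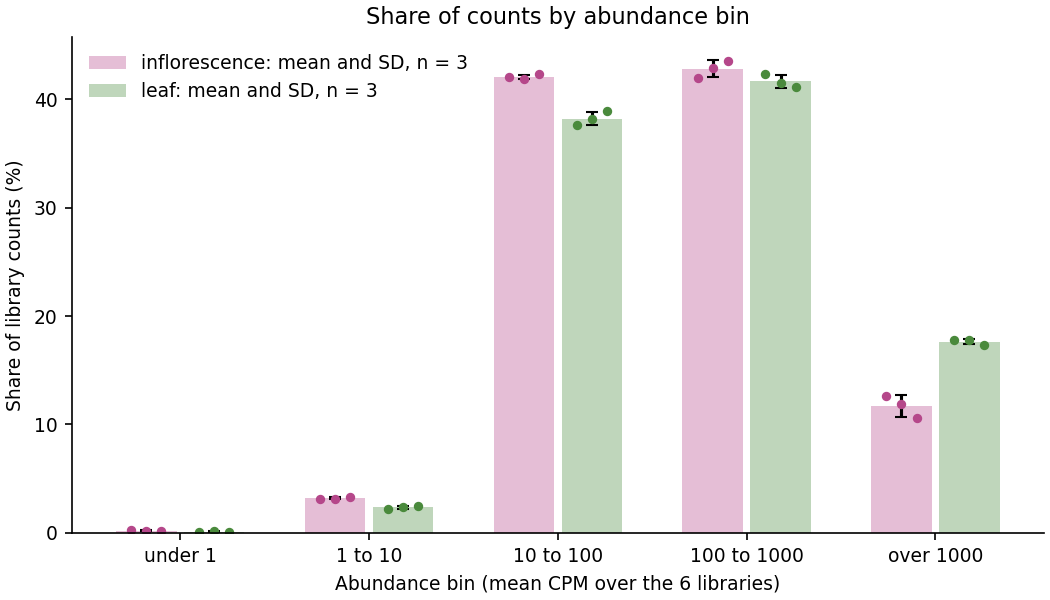
Share of each library's counts held by the genes of each abundance bin, in percent. Bars are means with SD over 3 libraries and points are single libraries; inflorescences stand above leaves at 10 to 100 CPM and below them over 1000 CPM.

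Behind these net shares lay far larger shifts in both directions. Summed over the genes with the higher mean CPM in inflorescences, the differences came to 38.4% of a library. Those of the other genes have the same size with the opposite sign by construction, since CPM add up to the same total in every library. Genes of 100 to 1000 CPM gained 16.6 points and lost 15.4 points, so their near balance hid much movement. Genes of 10 to 100 CPM gained 13.4 and lost 9.58 points, and the 68 genes over 1000 CPM gained 6.59 and lost 12.5 points. The bin over 1000 CPM thus made up 17.2% of all gains and 32.6% of all losses. It held 0.208% of the genes, but 11.7% of the counts in inflorescences and 17.7% in leaves. Genes of 1 to 10 CPM made up 4.2% of all gains and 2.02% of all losses.

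Inflorescence counts were also spread over more genes. It took 1435, 1436 and 1473 genes to hold 50% of the counts of the inflorescence libraries, against 1005, 1055 and 1067 genes in the leaf libraries. For 90% of the counts it took 8664 ± 47.7 genes in inflorescences and 7647 ± 127 in leaves (SD, n = 3 each). When each library was binned by its own CPM, 56.0 ± 3.46 genes stood over 1000 CPM in inflorescences and 79.7 ± 2.08 in leaves, while 2078 ± 8.66 and 1864 ± 7.94 genes stood at 100 to 1000 CPM. Each of the 7 library measures tested separated the tissues, with an exact two-sided permutation p of 0.1 and the same value after adjustment.

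Genes were then tested singly with edgeR's quasi-likelihood test, with TMM scaling and Benjamini-Hochberg adjustment over all 19638 genes that passed a filter on low counts. A gene was called at an adjusted p under 0.05. Over all bins 71.3% of the tested genes were called, 37.3% higher in inflorescences and 34.1% lower. Fold changes are log2 values, inflorescence over leaf. TMM centres them, and without it (raw library totals) log2 fold changes move up by a median of 0.17, which matters for bins whose median lies near 0.

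The share of genes called was larger in each higher bin from 1 CPM on. It was 64.7% of 6001 tested genes at 1 to 10 CPM, 72.7% of 11126 at 10 to 100, 84.1% of 1982 at 100 to 1000 and 95.6% of 68 over 1000. Replicate spread was smaller in most of the higher bins. The median biological coefficient of variation fitted by edgeR was 0.215, 0.117, 0.0968 and 0.104 in these bins, so the power of the test differed with them. Among called genes, the share that was higher in inflorescences was smaller in each higher bin under this bin rule. It was 61.4% at 1 to 10 CPM, 48.2% at 10 to 100, 47.5% at 100 to 1000 and 29.2% over 1000. The small step between the bins at 10 to 100 and 100 to 1000 reversed under other bin rules. The shares were 49.3% and 49.8% with bins by the higher tissue mean. With bins from the libraries numbered 1 and values from the others, they were 48.6% and 48.8%.

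The size of the differences was smallest in the middle of the range. The median absolute log2 fold change was 1.15 at 1 to 10 CPM, 0.61 at 10 to 100, 0.78 at 100 to 1000 and 2.35 over 1000. The bin rule can bear on these sizes, since a gene high in a single tissue can enter a high bin through that tissue. Between single libraries of different tissues, the median absolute log2 ratio (on CPM plus 0.5) over 1000 CPM was 2.11 to 2.30, against 0.09 to 0.12 between inflorescence libraries and 0.10 to 0.12 between leaf libraries. At 10 to 100 CPM it was 0.60 to 0.65 between tissues, against 0.11 to 0.13 within inflorescences and 0.15 to 0.16 within leaves. Even in the bin with the smallest tissue differences, a typical difference was thus several times the replicate spread.

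**Figure D2:**
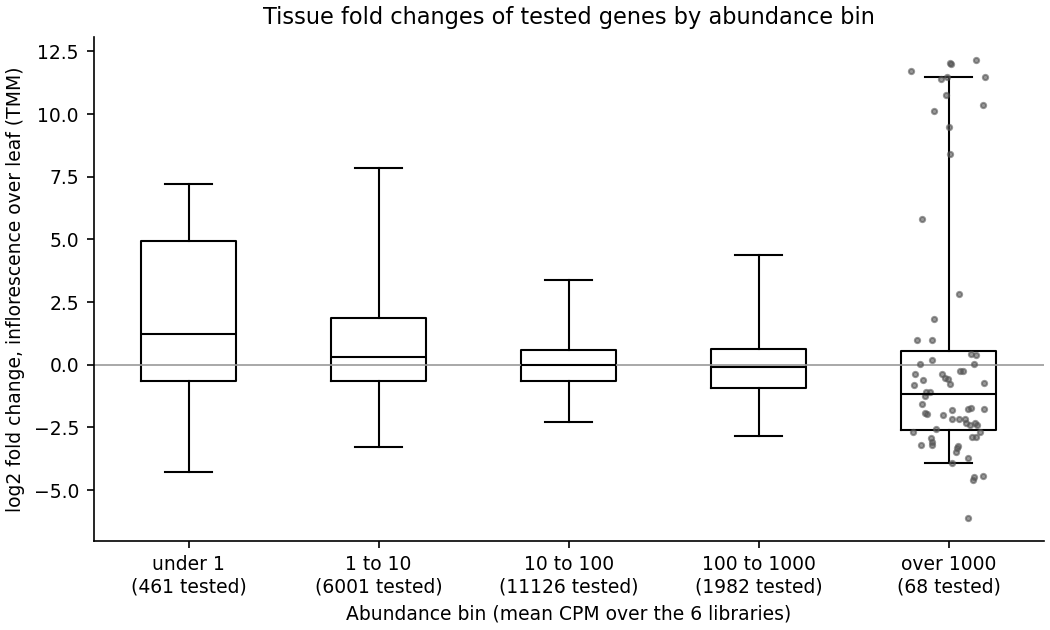
Log2 fold change of tested genes, inflorescence over leaf, by abundance bin; boxes are quartiles with the median, whiskers reach the 5th and 95th percentiles, and points in the last bin are single genes. The spread is narrowest at 10 to 100 CPM, and over 1000 CPM most genes lie below 0 with a separate group far above it.

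Genes under 1 CPM made up 40.8% of the list, and 6976 of the 13321 had no count in any library. Of the 6345 with a count, 4428 had the higher mean CPM in inflorescences and 1917 in leaves. Of these genes, 2791 had counts in inflorescences and none in any leaf library, and 699 had the reverse. With counts in all 3 libraries of the tissue asked for, the numbers were 1020 and 144. A count of 0 allows up to 0.218 to 0.263 CPM in a leaf library and 0.236 to 0.416 CPM in an inflorescence library (3 counts, counting error only), so these genes were not detected at this depth and may still be transcribed.

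Only 461 genes under 1 CPM were tested, 3.46% of the bin. The filter asks for about 0.847 CPM in at least 3 libraries, and a gene with a mean under 1 CPM passes mostly through the tissue in which it is high, so the 230 called higher and 83 called lower say nothing about the bin as a whole. With no filter, 6345 genes entered the test and 1292 were called higher and 350 lower. That is 25.9% of them called, while over all bins 15224 of 25668 genes were called in that fit. The filtered count changed when a library was left out, since more genes then passed the filter. The genes called higher numbered 485, 543 and 542 without leaf library 1, 2 and 3. Those called lower numbered 156, 162 and 164 without inflorescence library 1, 2 and 3, and 150 without leaf library 1.

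Genes of 1 to 10 CPM leaned towards inflorescences. Of 6001 tested, 2385 were called higher in inflorescences (39.7%) and 1497 lower (24.9%), against 37.3% and 34.1% over all tested genes. At 8-fold or more, 1060 were higher and 344 lower, and at 32-fold or more, 634 were higher and 142 lower. As shares of the tested genes in the bin these were 17.7% and 5.73% at 8-fold or more, against 10.2% higher and 4.26% lower over all tested genes. At 32-fold or more they were 10.6% and 2.37%, against 6.19% and 1.63% over all tested genes. The higher genes made up 75.5% of the calls of 8-fold or more in the bin and 81.7% of those of 32-fold or more, against 70.6% and 79.2% over all tested genes, so the larger changes leaned only a little more than they did in the whole table.

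The median log2 fold change of this bin was 0.31, and the quartiles were -0.65 and 1.87. The bin held 1534 genes with a leaf mean under 1 CPM and an inflorescence mean of 1 CPM or more, which is 24.97% of its genes. The reverse held for 575 genes, or 9.36%. The ratio of these numbers, 2.67, was not particular to the bin. It was 2.43 under 1 CPM, 3.05 at 10 to 100 and 9.29 at 100 to 1000. A total of 395 genes had counts in all inflorescence libraries and none in leaves, and 38 had counts in all leaf libraries and none in inflorescences. The median coefficient of variation between replicates was 19.3% in inflorescences and 23.1% in leaves, and counting error alone gave medians of 14.5% and 16.2%, so much of the spread of single genes here came with the depth.

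Genes of 10 to 100 CPM, the largest tested group, were the most alike between the tissues. Of 11126 tested, 3894 were called higher in inflorescences and 4190 (37.7%) lower, close to the shares over all genes. Changes under 2-fold made up 54.9% of the calls. Changes of 2-fold or more were balanced, with 1821 higher and 1825 lower. As shares of the tested genes they were 16.4% each way, against 22.6% higher and 17.9% lower over all genes.

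At 8-fold or more 634 genes of this bin were higher and 358 lower, which is 5.70% and 3.22% of its tested genes, against 10.2% and 4.26% over all tested genes. At 32-fold or more 365 were higher and 138 lower, or 3.28% and 1.24%, against 6.19% and 1.63%. The higher genes thus made up 63.9% and 72.6% of the large changes, below the 70.6% and 79.2% of all tested genes. There were 90 genes with counts in all inflorescence libraries and none in leaves, and 8 with the reverse. The balance of all calls depended on the scaling. With raw library totals, 4770 genes were called higher and 3401 lower, which puts 58.4% of the calls on the inflorescence side, against 48.2% with TMM. The median log2 fold change was -0.026 with TMM and 0.14 with raw totals, so no direction can be given for the bulk of the bin.

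Genes of 100 to 1000 CPM leaned slightly the other way at moderate changes. Of 1982 tested, 791 were called higher in inflorescences (39.9%) and 875 lower (44.1%), against 37.3% and 34.1% over all tested genes. At 2-fold or more, 338 were higher (17.1%) and 462 lower (23.3%), against 22.6% and 17.9%. At 8-fold or more, 127 were higher (6.41%) and 87 lower (4.39%), against 10.2% and 4.26%. At 32-fold or more, 89 were higher (4.49%) and 25 lower (1.26%), against 6.19% and 1.63%. Among these large changes the higher genes made up 59.3% at 8-fold or more and 78.1% at 32-fold or more, both below the shares over all tested genes. Under raw library totals 916 were called higher and 769 lower, so the direction of the calls as a whole flips with the scaling. The flip is not particular to this bin. Raw totals raised the share of calls that were higher in every bin, here from 47.5% to 54.4% and at 1 to 10 CPM from 61.4% to 66.9%.

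Genes nearly absent from one of the tissues were mostly absent from leaves in this bin too. In it, 65 genes had a leaf mean under 1 CPM with an inflorescence mean of 1 CPM or more, and 7 had the reverse. Leaves lacked any count of 3 genes of the bin, and inflorescences of none. The called-higher genes of the bin made up 24.8% ± 0.62 of the counts in inflorescences and 8.85% ± 0.353 in leaves. The called-lower genes made up 12.1% ± 0.149 in inflorescences and 27.5% ± 0.327 in leaves (SD, n = 3 each). Both sets were chosen by their direction in these libraries, which fixes which tissue held more.

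**Figure D3:**
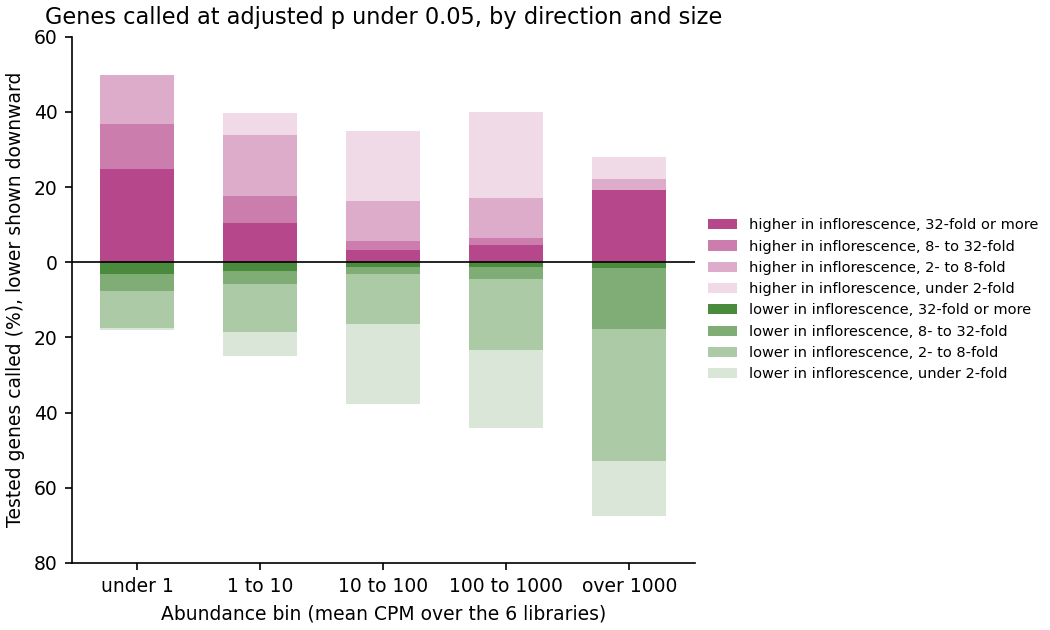
Percent of the tested genes of each abundance bin called at an adjusted p under 0.05, higher in inflorescences above the line and lower below it, shaded by fold change; the bars under 1 CPM stand for only 3.46% of that bin. The share called lower grows from 24.9% at 1 to 10 CPM to 67.6% over 1000 CPM, while changes of 32-fold or more lie mostly above the line from 1 CPM on, as they do over all tested genes (79.2% higher).

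All 68 genes over 1000 CPM were tested, and 65 were called, 19 higher in inflorescences (27.9%) and 46 lower (67.6%), against 37.3% and 34.1% over all tested genes. The median log2 fold change was -1.17. It was -1.14, -1.11 and -1.06 between the inflorescence and leaf libraries numbered 1, 2 and 3 on raw CPM plus 0.5. With single libraries left out, between 18 and 20 genes were called higher and between 44 and 46 lower. Of the 65 calls, 1 to 3 were lost each time, and 1 other gene was called without leaf library 1. None of the 65 called genes changed sign under any of the 15 other fits tried. Tested against a change of 2-fold (edgeR's glmTreat), 49 of the 68 passed, or 72.1%, against 31.7% over all tested genes (18.2% higher and 13.5% lower). The bin rule can bear on this share too.

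The higher genes and the lower genes of this bin differed in the size of their changes. Of the 19 that were higher, 13 were higher by 32-fold or more and the other 6 had log2 fold changes of 0.38 to 2.82, with no gene between 2.82 and 5.82. Of the 46 that were lower, 10 were lower by less than 2-fold, 24 by 2- to 8-fold and 12 by 8-fold or more. Only 1 was lower by 32-fold or more. As shares of the bin, 19.1% of its genes were higher and 1.47% lower by 32-fold or more, against 6.19% and 1.63% over all tested genes. At 8-fold or more the shares were 19.1% and 17.6%, against 10.2% and 4.26%. The bin rule shapes these shares, since a gene nearly absent from leaves enters the bin through its inflorescence level. With bins by mean log2 CPM, 5 genes over 1000 CPM were called higher at any fold, against 19. No gene of the bin was absent from inflorescences: the lowest inflorescence mean was 47.8 CPM, while the lowest leaf mean was 0.534 CPM.

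The genes that topped the leaf libraries were still expressed in inflorescences, at lower levels. The gene ranked 1 by mean CPM, identifier 492673, stood at 912, 879 and 866 CPM in inflorescence libraries 1, 2 and 3, against 20133, 18595 and 17786 CPM in leaf libraries 1, 2 and 3. Every leaf library was far above every inflorescence library, and the gene ranked 1 among leaf means and 72 among inflorescence means. Its log2 fold change was -4.58 ± 0.11 (SE), with an edgeR adjusted p of 7.8e-08. The gene ranked 4 by mean stood at 1301, 1234 and 1308 CPM in inflorescences and at 10623, 10290 and 10478 CPM in leaves.

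The deepest fall in the bin was that of identifier 477244, ranked 39 by mean. It stood at 52.3, 45.6 and 45.6 CPM in inflorescence libraries and at 2749, 3145 and 2928 CPM in leaf libraries, which ranked it 4991 and 20 in the tissues. The log2 fold change was -6.11 ± 0.11 (SE), a mean CPM 61.5-fold lower in inflorescences, with an edgeR adjusted p of 3.45e-08. The 36 genes that were lower by 2-fold or more made up 2.67% ± 0.0546 of the counts in inflorescences and 14.7% ± 0.165 in leaves (SD, n = 3 each). They were chosen by their direction in these libraries, which fixes which tissue held more. All of the 10 highest leaf genes were among these 36.

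The 13 genes higher by 32-fold or more were nearly absent from leaves, except for 1 with a leaf mean of 81.4 CPM. Their log2 fold changes ran from 5.82 to 12.17, and 12 of them had a leaf mean under 6 CPM. The gene ranked 3 by mean, the most abundant of all in inflorescences, stood at 13984, 13115 and 10807 CPM in inflorescence libraries 1, 2 and 3, against 3.19, 3.68 and 2.98 CPM in leaf libraries. The gene ranked 7 stood at 8958, 7542 and 6351 CPM in inflorescences and at 2.104, 1.14 and 1.66 CPM in leaves. In all, 8 of the 10 highest inflorescence genes belonged to these 13, whereas all of the 10 highest leaf genes kept an inflorescence mean of 534 CPM or more.

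The highest fold changes among called genes of the bin were those of identifiers 919340 and 312940. Gene 919340, ranked 43, stood at 3615, 2954 and 1704 CPM in inflorescence libraries and rested on 4, 7 and 8 counts in leaf libraries, or 0.290, 0.612 and 0.701 CPM. Its log2 fold change was 12.17 ± 0.45 (SE), with an edgeR adjusted p of 3.72e-07. Gene 312940, ranked 30, stood at 4619, 3468 and 2543 CPM in inflorescences and at 1.09, 0.525 and 0.525 CPM in leaves, with 15, 6 and 6 counts there. Its log2 fold change was 12.05 ± 0.38 (SE), with an edgeR adjusted p of 1.97e-07. So few leaf counts leave the size of the ratio uncertain, though the tissues lay more than 3 orders of magnitude apart in every library.

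**Figure D4:**
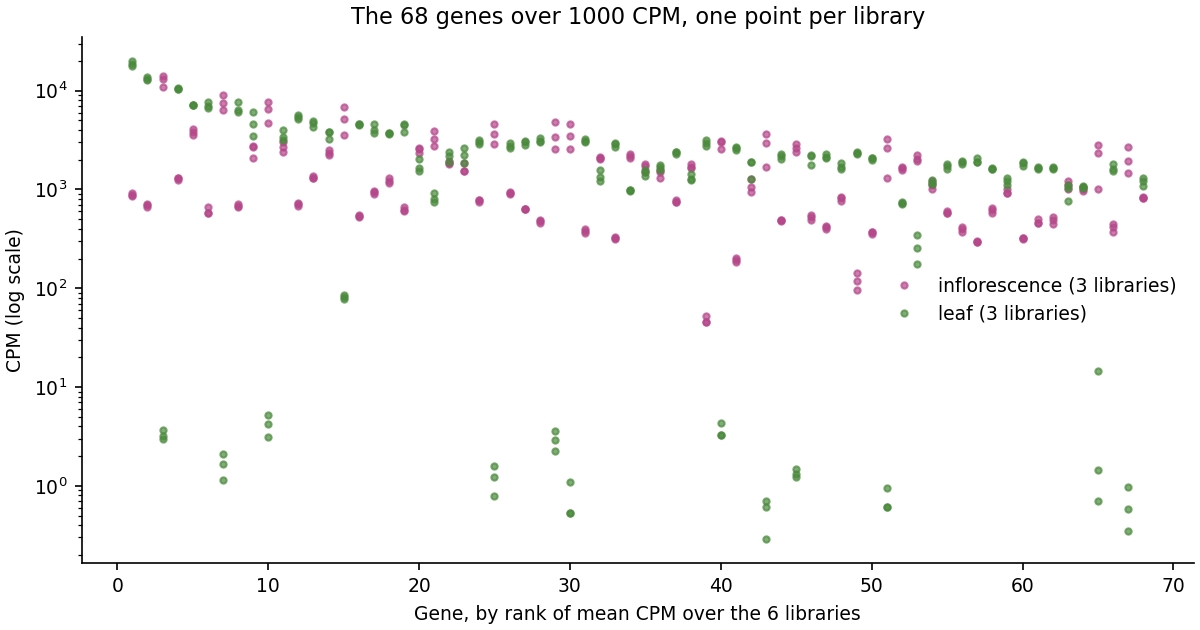
CPM on a log scale in each of the 3 inflorescence and 3 leaf libraries for the 68 genes over 1000 CPM, ordered by mean. In 12 genes the leaf points drop to a mean under 6 CPM, whereas the inflorescence points of leaf-biased genes stay at a mean of 47.8 CPM or more.

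These 13 genes also varied more than the rest of the bin between the inflorescence libraries. Together they took 6.76%, 5.83% and 4.61% of the counts in inflorescence libraries 1, 2 and 3, against 0.0104%, 0.0121% and 0.00978% in leaf libraries. Their choice by fold change in these libraries fixes which tissue held more. In 11 of the 13, library 1 was the highest inflorescence library and library 3 the lowest. The exceptions were the genes ranked 40 and 65, and the gene ranked 65 stood at 1016, 2325 and 2830 CPM in the same libraries. The other 55 genes of the bin took 5.89%, 6.07% and 6.03% of inflorescence counts. The spread in the share of the bin over 1000 CPM among inflorescences therefore lay in the 13 genes, whose median coefficient of variation was 29.3%, against 4.42% for the other 55. What set these libraries apart was not tested.

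The 3 genes over 1000 CPM that were not called were ranked 35, 38 and 63. The gene ranked 35 stood at 1673 ± 164 CPM in inflorescences and 1476 ± 94.1 CPM in leaves (SD, n = 3 each), with a log2 fold change of 0.013 ± 0.10 (SE) and an edgeR adjusted p of 0.913. The gene ranked 38 had all 3 inflorescence libraries above the leaf libraries, yet a log2 fold change of 0.21 ± 0.089 (SE) and an edgeR adjusted p of 0.0636. Without overlap between the tissues in CPM stood 91.2% of the bin, against 76.9% of all tested genes. Of the called genes, 4 overlapped, with log2 fold changes of -0.23 to -0.78. The gene ranked 54, at -0.26, lost its call under 8 of the fits tried, among them raw library totals (edgeR adjusted p = 0.402) and those without inflorescence library 1, inflorescence library 3 and leaf library 1 (edgeR adjusted p = 0.089, 0.115 and 0.0817). The genes ranked 20 and 64, with log2 fold changes of 0.38 and -0.23, also lost their calls when single libraries were left out, the first without inflorescence library 2 or 3 or leaf library 2 or 3 and the second without inflorescence library 2 or 3.

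When each tissue was binned by its own mean, 25026 genes (76.7%) fell in the same bin in both. A higher bin in inflorescences was found for 4846 genes and a higher bin in leaves for 2772. These means used raw library totals, under which log2 fold changes lie a median of 0.17 above those with TMM. The moves were not counted with TMM scaling. Moves of 2 or more bins numbered 743 towards inflorescences and 236 towards leaves, and moves of 3 or more numbered 131 and 18. Over 1000 CPM stood 61 genes in inflorescences and 80 in leaves, of which 17 were shared, or 27.9% of the inflorescence set and 21.3% of the leaf set.

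The genes over 1000 CPM in only one of the tissues fell to different depths in the other. Of the 61 inflorescence genes, 10 had a leaf mean under 1 CPM and 13 a leaf mean of 1 to 10. Of the 80 leaf genes, none had an inflorescence mean under 1 CPM, 1 had a mean of 1 to 10 and 58 had a mean of 100 to 1000. The share that stayed in its bin was larger at 10 to 100 CPM, where 8182 genes were shared, or 75.1% of the inflorescence set and 80.7% of the leaf set.

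**Figure D5:**
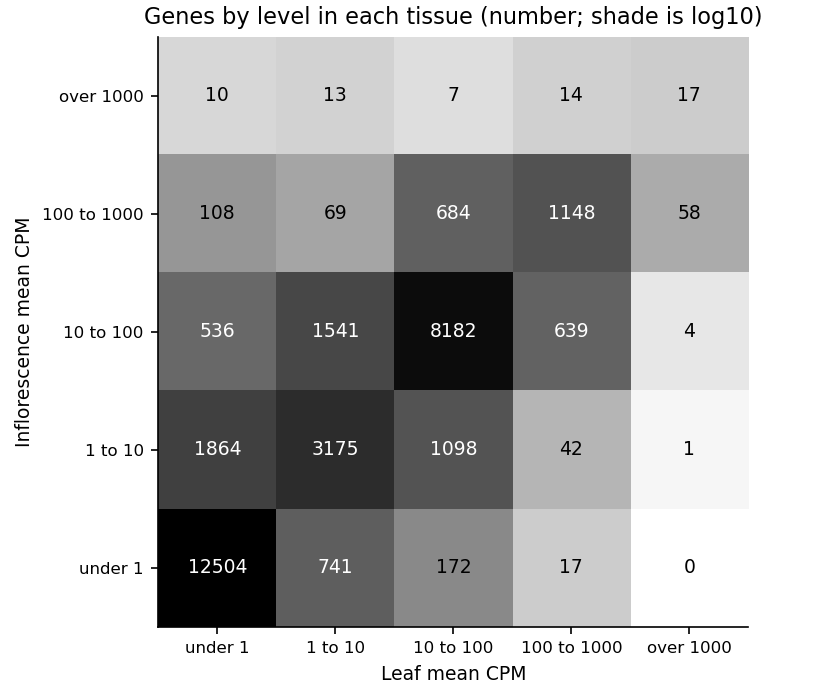
Number of genes by mean CPM (raw library totals, no TMM scaling) in inflorescences (rows) and in leaves (columns), with shade on a log10 scale. The cells above the diagonal together hold 4846 genes and those below it 2772, though 14 genes against 58 in the pair of cells between the top bins, and the bottom right corner, for genes over 1000 CPM in leaves and under 1 CPM in inflorescences, is empty.

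Bin edges fell in a continuous range of levels and did not divide distinct groups. Within 10% of the edges at 1, 10, 100 and 1000 CPM stood 379, 867, 532 and 19 genes. The highest gene left below 1000 CPM had a mean of 992.1 CPM, with 1984 CPM in inflorescences and 0.208 CPM in leaves, and the lowest gene above it had a mean of 1009 CPM, with 821 CPM in inflorescences and 1198 CPM in leaves. At the other edges, the genes just below and just above had means of 0.999 and 1.002, 9.998 and 10.001, and 99.96 and 100.01 CPM.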

How the data were processed

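The authors deposited 1 table of raw counts per gene for each library, as whole numbers. TAIR10 is the build named in the submitters' processing notes, also for A. lyrata. Which aligner, counter, strand setting and A. lyrata annotation were used is not given in the sources used here, so reads shared by near-identical genes or by overlapping genes could have been split in ways not known here. Groups and replicate numbers came from the labels. Members, bins and tests were chosen with earlier results of these data known.

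CPM used raw library totals. Tests used edgeR 4.0.16 in R 4.3.3 on the deposited counts (filterByExpr, TMM, quasi-likelihood F test on tissue alone, Benjamini-Hochberg adjustment, threshold 0.05). They were also tried on simulated counts in which only a small part of the genes was changed. That trial cannot show how TMM scaling does where most genes differ, as here. SE is the log2 fold change divided by the square root of its F value. p-values measure only the spread between these libraries. Alternatives were RLE, upper-quartile and no scaling, other filters, DESeq2 1.42.0, limma-voom (limma 3.58.1), glmTreat, a replicate block, other bin rules and leaving out each library. Without names, the identifiers printed are those with the 2 highest and 2 lowest fold changes among called genes over 1000 CPM, and other genes are given by rank, chosen after their values were seen. The planned gene lists and marker checks need names and were not made. Bins and figures were made in Python 3.11.15 (pandas 2.3.3, scipy 1.17.1, numpy 2.4.6, matplotlib 3.10.9).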

Additional observations from a re-analysis of the deposited data

How the results depend on the processing

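The lean towards leaves over 1000 CPM held under every alternative tried, while bins with a median near 0 changed sign with the scaling. The median log2 fold changes of the tested genes of the 5 bins, from low to high abundance, were 1.22, 0.31, -0.026, -0.076 and -1.17. The first rests on 461 genes, 3.46% of its bin, that passed the filter mostly through the tissue in which they are high. The medians were 1.27, 0.36, 0.028, -0.022 and -1.12 with upper-quartile scaling and 1.38, 0.48, 0.14, 0.092 and -1.003 with raw library totals. At 10 to 100 CPM the median was -0.0084 with RLE and -0.0061 with DESeq2. Under 1 CPM it was 1.86 with no filter, 2.395 with a filter of 1 CPM in 3 libraries and 1.04 with DESeq2.

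Counts called higher and lower under 1 CPM (230 and 83) were 1292 and 350 with no filter, 145 and 46 with the filter of 1 CPM, and 984 and 259 with DESeq2, which tested more genes. In this order, 67.9%, 25.9%, 78.6% and 28.3% of the genes tested in the bin were called. Over all bins the calls were 14010 of 19638, 15224 of 25668, 13843 of 19354 and 14189 of 23703. Against a 2-fold change (glmTreat), 1611 genes were called higher and 771 lower at 1 to 10 CPM. At 10 to 100 CPM 1484 were higher and 1388 lower, and at 100 to 1000 CPM 280 and 401. In this order, 39.7%, 25.8% and 34.4% of the genes tested in the bin were called. Under 1 CPM the calls were 190 higher and 60 lower, and over 1000 CPM 15 and 34. Among all tested genes, 3580 (18.2%) were called higher and 2654 (13.5%) lower.

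With bins by mean log2 CPM, the medians were 2.70 under 1, -0.051 at 10 to 100 and -1.41 over 1000 CPM, the calls 563 and 177 under 1 CPM and 5 higher over 1000 CPM (13.5% of calls, against 29.2%), and the share of genes of 100 to 1000 CPM turned to -1.10 points. With bins by the higher tissue mean, the medians were -0.0044 under 1, -0.0092 at 10 to 100, 0.013 at 100 to 1000 and -1.08 over 1000, with 2 and 1 calls under 1 CPM and 45 and 76 over 1000. With bins from the libraries numbered 1 and values from the others, the medians were 1.33 under 1, 0.26 at 1 to 10 and -1.25 over 1000, with 479 and 262 calls under 1 CPM. Without genes over 1% of a library, the share at 100 to 1000 CPM turned to -0.0219 points.

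Leaving out each library gave 314 to 543 higher and 91 to 164 lower calls under 1 CPM, and medians of 0.67 to 2.96 under 1, -0.040 to -0.018 at 10 to 100 and -1.24 to -1.17 over 1000 CPM. Without leaf library 2 or 3, 85.2% and 85.6% of the calls under 1 CPM were higher, against 73.5%. Correlations of same-numbered deviations were 0.094, 0.138 and -0.099, and those of differently numbered libraries ran from -0.285 to 0.225. They showed no sign of pairing by replicate number, but so few libraries cannot exclude it. With the replicate block, 13735 genes were called in place of 14010 and the median under 1 CPM was 1.26. Depth limits the bins under 10 CPM, where the median counting error at 1 to 10 CPM was 14.5% in inflorescences and 16.2% in leaves.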

Other observations

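A finer division, into 10 groups of 1963 or 1964 tested genes by mean CPM, showed how the direction of the calls varied along the range. From the lowest group (0.519 to 2.19 CPM) to the highest (104 to 9862 CPM), the share of called genes that were higher in inflorescences was 68.9%, 64.0%, 57.6%, 51.7%, 50.7%, 47.9%, 48.4%, 44.97%, 46.6% and 47.1%. It was lower in each group up to about 28 CPM and between 44.97% and 48.4% in the groups above that. The highest group spans both upper bins, in which the share differed, at 47.5% from 100 to 1000 CPM and 29.2% over 1000 CPM. Where the share crosses 50% depends on the scaling. Changes of 8-fold or more were called in 33.6% of the lowest group and in 6.98% of the group at 40.0 to 59.9 CPM, and in 12.0% of the highest. Of these large changes, 58.7% to 80.6% were higher in inflorescences, in every group. The filter on low counts shapes the lowest group, since a gene there can pass through a single tissue.

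The tissues shared few of their most abundant genes. Of the 10 highest genes of each tissue, 1 was shared, the gene ranked 5 by mean over all libraries, which stood at 3829 ± 255 CPM in inflorescences and 7181 ± 50.6 CPM in leaves (SD, n = 3 each). Of the 100 highest of each, 32 were shared, and of the 1000 highest, 513.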
